A study of Mus musculus with 6 samples.

Results

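Klf2 is the gene of 1 row among the 27179 rows of a table of counts from an m6A immunoprecipitation of stromal RNA. It was picked by its Entrez gene identifier, matched to the symbol, and not by its counts, so that its row, read over all 6 libraries, is 1 gene of 27179. The RNA came from bone marrow mesenchymal stromal cells of C57BL/6 mice at postnatal day 2 (P2), heterozygous for a DsRed reporter in the Cxcl12 gene (Cxcl12-dsred/+). Cells positive for DsRed were sorted after cells with CD45, Ter119 or CD31, marks of blood, erythroid and endothelial cells, had been set aside. All 3 groups share this genotype, strain, age and sort: Input (poly(A) RNA kept before the pull-down), IgG (RNA bound by a control antibody) and anti-m6A (RNA bound by an antibody to N6-methyladenosine), with 2 libraries each. The labels do not say how many mice were pooled or whether the replicates came from separate mice, and every p-value here refers only to how far the 2 libraries of a group differ, which may be technical variation. No library from cells that lack the m6A methyltransferase was analysed here, so a dependence on that enzyme was not measured.

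Klf2 (Krüppel-like factor 2, first named lung Krüppel-like factor) is a transcription factor with zinc fingers at its C-terminal end that bind GC-rich and CACCC elements. It is best known in endothelium, where flowing blood induces it through the kinases MEK5 and ERK5 and the MEF2 factors, and in T cells, which it keeps quiescent. In mesenchymal precursors it restrains fat cell formation, in part by lowering Pparg. m6A is placed on mRNA by the METTL3 and METTL14 enzyme pair, often near the stop codon, and readers such as YTHDF2 can hasten the decay of RNA that carries it. The study asked about an RNA modification program in the stroma that houses haematopoietic stem cells, and the pull-down asks here whether Klf2 RNA is among the RNA that the m6A antibody holds.

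On GRCm38 (the assembly of mm10, the build named in the submitters' processing notes) Klf2 lies on chromosome 8 from 72319062 to 72321654 by RefSeq, on the plus strand. GENCODE lists 1 transcript with 3 exons, 1847 bases long, of which 45 are 5′ UTR, 1065 are coding with the stop codon and 737 are 3′ UTR. No other GENCODE gene overlaps it, so its counts are not shared with an overlapping or antisense gene. The nearest counted gene, Eps15l1, begins 19336 bases after its end.

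The core m6A consensus, a G, a G, the A that can be methylated, a C and then A, C or T, stands 9 times in the Klf2 mRNA (GGACA 4 times, GGACC 4 times and GGACT 1 time). Of these, 5 are in the coding part, all in exon 2, and 4 are in the 3′ UTR in exon 3. A cluster of 3 lies in the 3′ UTR with its A between 90 and 108 bases after the last base of the stop codon. The lines below give the single GGACT and this cluster, as the forms nearest to the textbook site and to the textbook position, 5′ to 3′ on the plus strand from the GENCODE transcript, with the pentamer in capitals.

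Klf2 coding, exon 2, chr8:72319485-72319489: aacgtgttGGACTtcatcctc
Klf2 3′ UTR, exon 3, chr8:72321007-72321011: tatttattGGACCttaggaca
Klf2 3′ UTR, exon 3, chr8:72321015-72321019: ggaccttaGGACAgagccgga
Klf2 3′ UTR, exon 3, chr8:72321025-72321029: acagagccGGACAagtgtggc

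Such pentamers are common. Among 2038 mRNAs within 10% of the length of Klf2, 99.5% held at least 1 on the mRNA strand, their median was 7, and 32.8% held as many as Klf2 or more. Klf2 had 4.87 per kilobase, against a median of 3.48 over 21822 mRNAs of at least 200 bases, and 77.4% of these had fewer. With the wider consensus of 18 pentamers (A, G or T, then A or G, then AC, then A, C or T) the order turned: Klf2 had 25, or 13.5 per kilobase against a median of 20.3, and 4.02% of mRNAs had fewer. The Klf2 mRNA is rich in G and C, at 61.6% against a median of 49.1%, and 97.6% of mRNAs had less. Counts were summed over the gene and the labels name no fragmentation step, so the data do not tell which of these pentamers, if any, was methylated.

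**Figure D1:**
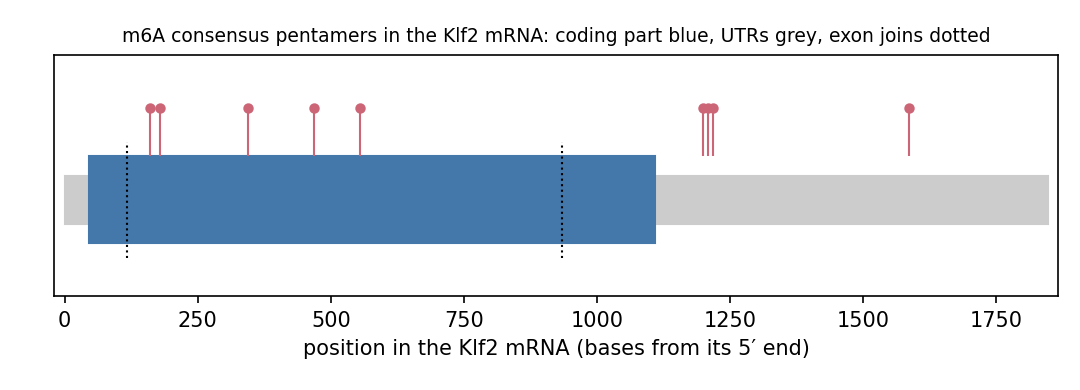
Positions of the 9 core consensus pentamers (points, at the A) along the 1847 bases of the Klf2 mRNA, with the coding part in blue and the UTRs in grey. The coding part holds 5 of them and the 3′ UTR 4, with 3 of the latter close together after the stop codon.

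The deposited counts summed to 7125578 and 9493391 in Input, 2487148 and 1278735 in IgG and 6102070 and 5133237 in anti-m6A. Genes with at least 1 count numbered 10024 and 11186, 3266 and 2723, and 12714 and 12391, in the same order. Cxcl12, the gene of the sorted reporter, stood at 4604 ± 323 CPM in Input (CPM, the standard depth-normalised count, here over the TMM-scaled library size; SD, n = 2), and none of the 14 stromal markers listed was at 0 in the Input libraries.

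Klf2 was scarce in Input, not seen in IgG and plentiful in anti-m6A. It had 25 and 5 counts in Input replicates 1 and 2, 0 and 0 in IgG, and 165 and 149 in anti-m6A. Both anti-m6A libraries were thus above both Input libraries, as in 44.3% of all genes tested, although the total counts of each anti-m6A library were below those of each Input library. As unscaled CPM, over the plain library total, Klf2 took 3.51 (exact 95% binomial interval 2.27 to 5.18) and 0.527 (0.171 to 1.23) in Input. In anti-m6A it took 27 (23.1 to 31.5) and 29 (24.6 to 34.1). The 0 counts in IgG allow up to 1.21 and 2.35 unscaled CPM, the share of 3 counts. Input replicate 2, at 0.527, lay below both of these limits, so its level could not be told apart from that in IgG. The anti-m6A intervals overlap each other and lie far above the others, whereas the Input intervals do not overlap each other. The intervals and limits speak for counting error alone, because reads were amplified and not tagged by molecule.

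**Figure D2:**
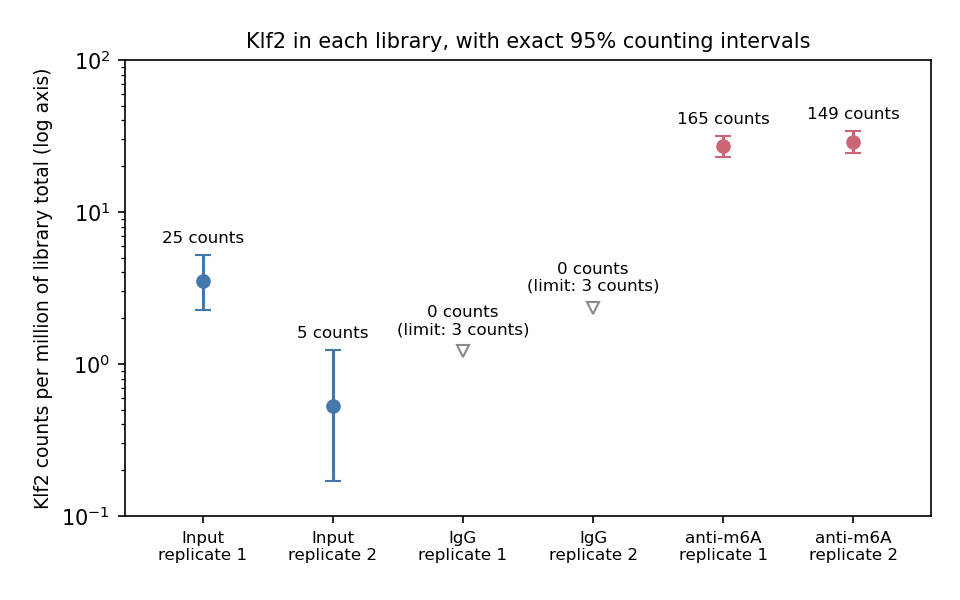
Klf2 CPM over the plain library total (unscaled) on a log axis, for each of the 6 libraries; bars are exact 95% binomial intervals and open triangles mark the share of 3 counts where none was seen. The anti-m6A libraries sit at 27 and 29 unscaled CPM, the Input libraries at 3.51 and 0.527.

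The comparison with IgG asked whether the m6A antibody recovered Klf2 RNA beyond a control antibody on the same beads. Klf2 stood at 35.9 ± 2.36 CPM in anti-m6A (SD, n = 2), which is at least 23.1-fold higher than the IgG floor of 1.55 CPM, the mean level of 3 counts per library. The change was called by edgeR's quasi-likelihood test (adjusted p = 0.00603). With 0 counts in IgG and a pass of the count filter that rested on its anti-m6A counts, Klf2 could only come out higher here. The direction was thus fixed in this comparison and under its alternatives. Both anti-m6A libraries were above both IgG libraries, as in 82.2% of all genes tested. At its level in anti-m6A replicate 1, Klf2 would have given 88.5 and 52.8 counts in the IgG libraries, where there were 0. This call is shared with most of the table, since 73.1% of the 11281 genes tested passed in this direction and 8.31% in the other, and it is not particular to Klf2. Klf2 was also called under all 13 alternatives (adjusted p from 2.89e-06 to 0.0223).

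The level of Klf2 in IgG against Input was at the limit of what these libraries can show. At the CPM of Input replicate 1 the IgG libraries would have held 7.65 and 4.56 counts, and at that of Input replicate 2 they would have held 1.25 and 0.748. The observed counts were 0 and 0, and the difference was not called (edgeR adjusted p = 0.0557), where 61.5% of genes were lower in IgG than in Input and 9.89% were higher. Over the 13 alternatives the adjusted p ran from 0.00366 to 0.153 and passed the threshold in 4.

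The comparison with Input asked whether Klf2 took a larger share of the RNA after the pull-down than before it. The mean CPM of Klf2 was 20.8 times as high in anti-m6A as in Input, where it stood at 1.72 ± 1.75 CPM (SD, n = 2), and the fitted log2 change was 4.37 ± 1.03 (SE; edgeR adjusted p = 0.0293). Klf2 entered this test through its anti-m6A counts, since Input counts like its own did not pass the count filter alone. Gca, with 24 and 5 counts in Input and 0 in the IgG and anti-m6A libraries, was not tested. A gene with such Input counts and none in the pull-downs could thus not be called lower, so the test leans to higher calls there. Of all genes tested, 28.0% rose in this comparison and 20.5% fell. The scaling of the libraries moved that split, from 57.8% higher among the calls to 47.6% with DESeq2's size factors and 45.5% with library totals. The median of all genes shifted with it, by -0.40 and -0.51 on the log2 scale. Relative to that median Klf2 was higher by 4.19, 4.12 and 4.12 on the log2 scale, and it stayed called (adjusted p = 0.0293, 0.0375 and 0.0413).

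The size of the change depended on which Input library was used. Against Input replicate 1, the CPM of Klf2 was 11.6-fold higher in anti-m6A replicate 1 (exact 95% interval 7.57 to 18.4, counting error only) and 12.7-fold higher in replicate 2 (8.27 to 20.2). Against Input replicate 2 it was 70.6-fold (29.6 to 220) and 77.4-fold (32.5 to 242) higher. The 4 folds all point the same way. The Input pair differed by 6.10-fold (2.29 to 20.4), and the anti-m6A pair by 1.10-fold. The fitted log2 change was 6.13 without Input replicate 1 and 3.59 without Input replicate 2, past the threshold both times (edgeR adjusted p = 0.00108 and 0.00116). Each of these fits has 1 Input library and so no longer holds the unequal Input pair: the spread comes from the pull-down pairs alone, the lone library is assumed to vary like them, and the SE went from 1.03 to 0.37 and 0.29. The same assumption holds for the lone library in every fit that leaves 1 out.

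The call against Input did not hold in 3 of the 13 alternatives. Without anti-m6A replicate 1 the log2 change was 4.44 ± 1.54 (edgeR adjusted p = 0.0845), and without replicate 2 it was 4.23 ± 1.60 (adjusted p = 0.0867). When the counts of each pull-down pair were added together, so that the whole spread comes from the Input pair, it was 4.39 ± 1.56 (adjusted p = 0.0789). The direction was the same in every one of the 13, with log2 changes from 3.59 to 6.13. An exact permutation test over 2 libraries against 2 cannot go below p = 0.333 and so was not used.

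**Figure D3:**
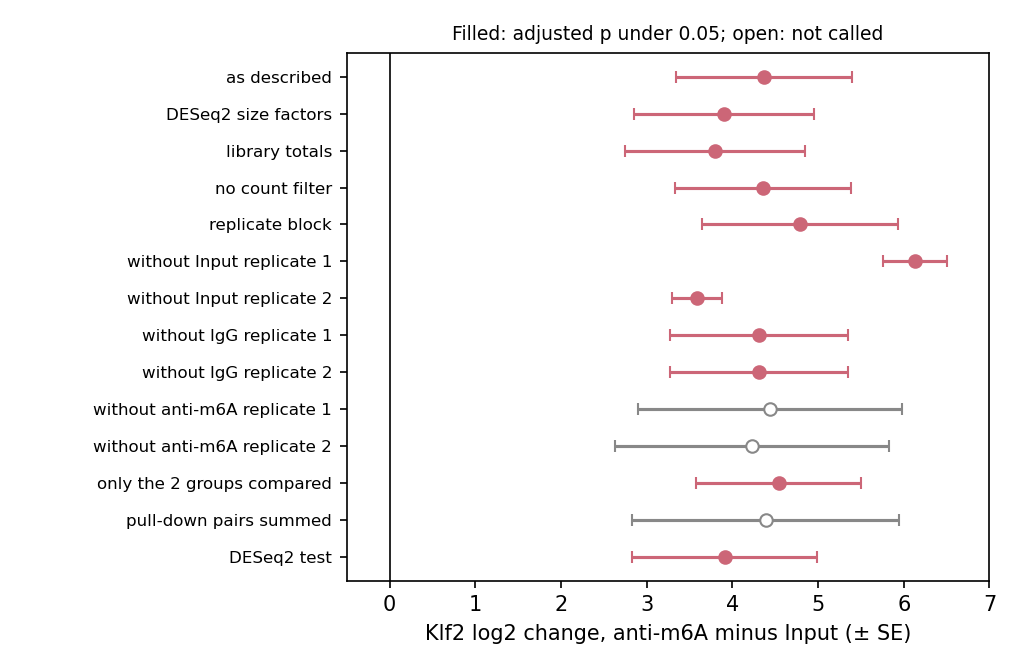
Klf2 log2 change in anti-m6A minus Input (points) with its SE (bars) as described in the text and under 13 alternatives; filled points passed an adjusted p of 0.05. All lie above 0, from 3.59 to 6.13, and the 3 open points are those that leave 1 anti-m6A library or sum each pull-down pair.

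Klf2 was next set against genes of like Input count, taken from the whole table before any filter: the 100 genes below and the 100 above it in mean Input CPM, from 1.49 to 2.04. Their ratio of mean anti-m6A to mean Input CPM, in whose arithmetic the length of the gene cancels, had a median of 1.89 and quartiles of 0.381 and 6.84. The ratio of Klf2, 20.8, was above 91.5% of them, and 17 of the 200 had a higher one, up to 349. Most genes of this Input level were thus below Klf2, and some were far above it. Of the 200, 135 passed the count filter, and edgeR called 53 of these higher against Input and 2 lower, beside 28.0% and 20.5% of all genes tested. Among the genes tested, a higher call like that of Klf2 was thus common at this Input level. A gene with Input counts like those of Klf2 entered the test only through its pull-down counts, so the filter itself leans this split to higher calls. The split is therefore not read as a result about Klf2 or its Input level. The percentage below Klf2 lay between 88 and 94.5 under 7 other ways to choose the genes, such as a like exonic length as well (88) or a CPM within a factor of 1.5 in each Input library (89.4, 47 genes). The 163 of the 200 with an mRNA sequence had a median mRNA length of 3187 bases, against 1847 for Klf2. Recovery by the antibody may still vary with length, and the part of length in the Klf2 result was not tested.

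These genes also show how uncertain an Input level this low is. Of the 200, 48 were at 0 in 1 of the Input libraries, and the other 152 differed between them by a median of 2.23-fold. Klf2, at 6.10-fold, was among the more unequal: 12 of the 152 differed by more. In anti-m6A the pair of libraries differed by a median of 1.26-fold over the 157 genes seen in both, and 132 of these were more unequal than Klf2. The 0 counts of Klf2 in IgG were shared by 171 of the 200, and 132 of the 200 were, like Klf2, at 0 in both IgG libraries and seen in both anti-m6A libraries. Both anti-m6A libraries were above both Input libraries in 101 of the 200. That share was 44.3% over all genes tested, a set from which the genes of low counts had been removed.

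The 3 genes nearest to Klf2 in both Input libraries had almost its Input counts and unlike pull-down counts. Atad3aos, an antisense RNA, had 26 and 5 counts in Input and 86 and 57 in anti-m6A; without strand its reads cannot be told from those of its partner gene. B230217C12Rik had 24 and 5 counts in Input and 55 and 55 in anti-m6A. Gca, which encodes the calcium-binding protein grancalcin, had 24 and 5 counts in Input and 0 and 0 in anti-m6A. All 3 were at 0 in both IgG libraries, so an Input count like that of Klf2 went with anti-m6A counts from 0 to 86 among them, against 165 and 149 for Klf2.

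**Figure D4:**
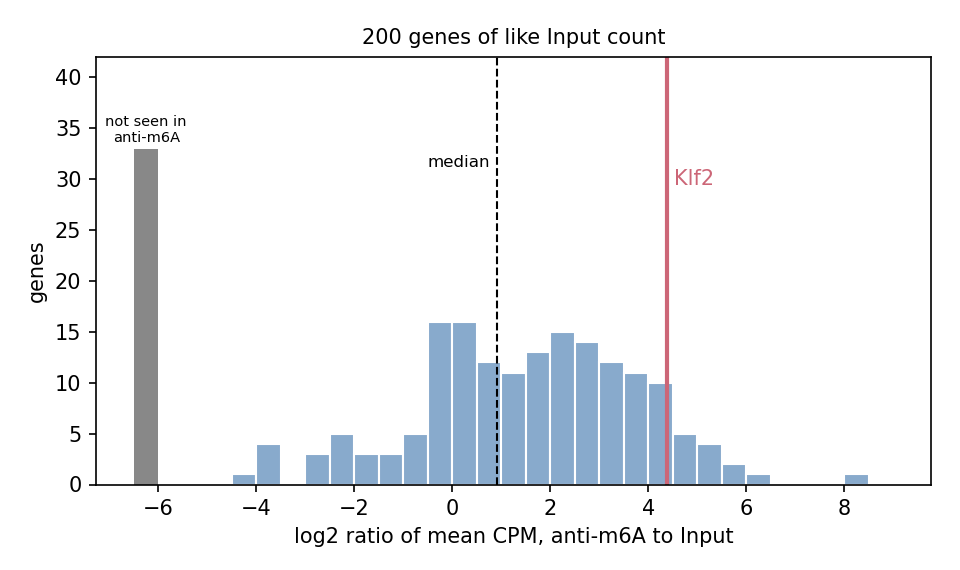
Number of genes (vertical axis) by log2 ratio of mean CPM, anti-m6A to Input (horizontal axis), for the 200 genes of like Input count; the grey bar holds the 33 that were not seen in anti-m6A. The dashed line is the median ratio of 1.89 and the red line is Klf2 at 20.8, above 91.5% of the genes.

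Seen from the other side, by a comparison chosen after seeing the data, Klf2 had less Input RNA than most genes of its anti-m6A level. The 200 genes nearest to it in mean anti-m6A CPM (34.5 to 37.3) had a median Input level of 33.5 CPM with quartiles of 11.5 and 66.6. Of these, 28 had a lower Input level than Klf2 (17 of them 0 in both Input libraries), and 151 were at 0 in both IgG libraries. Like Klf2, most genes of this anti-m6A level were therefore not seen in IgG.

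The Klf2 mRNA was richer in G and C than nearly all genes of like Input count. Of the 163 of them with an mRNA sequence, 160 had a lower GC content than Klf2 (median 49.7%), and 129 had fewer core pentamers per kilobase (median 3.77). The 3 genes with at least the GC content of Klf2 had a median ratio of 6.54, and all were below Klf2. The part of GC content in the Klf2 result was not tested.

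The genes whose pattern over the 6 libraries was most like that of Klf2 were Car13 (a carbonic anhydrase), Zfp707 (a zinc finger gene), Dsel (a dermatan sulfate epimerase-like enzyme), Metap1 (a methionine aminopeptidase) and Nsun2 (an RNA methyltransferase for 5-methylcytosine). Likeness was the Euclidean distance between log2(CPM + 1) profiles, each centred on its own mean, over 11030 named genes, and the 5 lay at distances from 0.284 to 0.519. Car13 (chromosome 3, 14641727 to 14663002) had 23 and 7 counts in Input, 0 and 0 in IgG and 143 and 140 in anti-m6A. Nsun2 (chromosome 13, 69612016 to 69635780) had 15 and 7, 0 and 0, and 151 and 135. All 5 were at 0 in both IgG libraries and higher in Input replicate 1 than in replicate 2, as Klf2 was. This follows largely from their choice by likeness to Klf2 and is no separate result. By the Pearson correlation in place of the distance, 2 of these 5 were again among the nearest 5.

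The other KLF genes are the transcription factors that share the zinc fingers of Klf2. All 16 were at 0 in both IgG libraries, and 11 of the 13 tested were called higher against IgG, beside 73.1% of all genes. With no IgG counts, the 13 could only come out higher in this comparison, whereas the share over all genes also holds genes seen in IgG. Against Input, 4 of 13 were higher (Klf5, Klf7, Klf8 and Klf10) and 0 were lower, where 28.0% and 20.5% of all genes were, so the share of higher members is near that of all genes. Klf5 and Klf8, at 0 in Input and IgG, passed the count filter through anti-m6A alone and could only come out higher. The median log2 change of the 13 was 0.29 beside 0.18 over all genes. At an unadjusted p under 0.05 edgeR had 1 of the 13 lower, and DESeq2 called 2 lower after adjustment. Split by their textbook groups, the higher and lower members were 1 and 0 of 2 (Klf3, Klf8), 2 and 0 of 5 (Klf1, Klf4, Klf5, Klf6, Klf7), 1 and 0 of 5 (Klf9, Klf10, Klf11, Klf13, Klf16) and 0 and 0 of 1 (Klf15). Leaving out anti-m6A replicate 1, edgeR called 0 of the 13 higher, and without replicate 2 it called 2. Without Input replicate 1 it called 6 higher and 2 lower, and without Input replicate 2 it called 7 and 1.

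Klf10, a gene induced by TGF-beta, had 309 and 231 counts in Input and 498 and 379 in anti-m6A, and its log2 change, with 2 libraries a group, was 1.75 ± 0.38 (SE; edgeR adjusted p = 0.0239). It was not called with DESeq2's size factors (adjusted p = 0.0617), library totals (0.0781), the replicate block (0.0519), the pull-down pairs summed (0.188) or without anti-m6A replicate 1 or 2 (both 0.221, all by edgeR). Klf5 and Klf8 were at 0 in both Input libraries and at least 15.4-fold and 21.8-fold higher in anti-m6A. Klf4, like Klf2 a factor that responds to flow in endothelium, gave values in the other direction. It had 266 and 765 counts in Input and 53 and 8 in anti-m6A, a log2 change of -3.01 ± 1.03 (SE, n = 2 per group) that was not called (edgeR adjusted p = 0.0753). Klf6 had 878 and 2463 counts in Input and 955 and 664 in anti-m6A, with a log2 change of 0.09 ± 0.48 (SE, n = 2 per group) that was not called and turned negative with other scalings and without Input replicate 1 or anti-m6A replicate 1. Without Input replicate 2 it was 0.81 ± 0.24 and called (edgeR adjusted p = 0.0343). Input replicate 1 was the higher of the Input pair for Klf2, and replicate 2 for Klf4 and Klf6.

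Per kilobase of exon, Klf2 was low among its family in Input and in the upper part in anti-m6A. In Input it ranked 11 of the 14 KLF genes seen there, at 1.60 and 0.263 CPM per kilobase, a range that overlaps those of its neighbours in that order, Klf15 (1.27 and 1.01) and Klf11 (0.818 and 0.469). In anti-m6A it ranked 5 of 14, at 18.5 and 20.3 CPM per kilobase. There it lay below Klf10 (24.7 and 22.9) and above Klf9 (10.1 and 8.85), and overlapped neither. Klf6 and Klf13 had the highest means in both groups, and their libraries overlapped each other. In Input the order below Klf6 was not stable: in replicate 2 Klf1 (28.7) and Klf4 (24.3) stood above Klf13 (19.8).

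**Figure D5:**
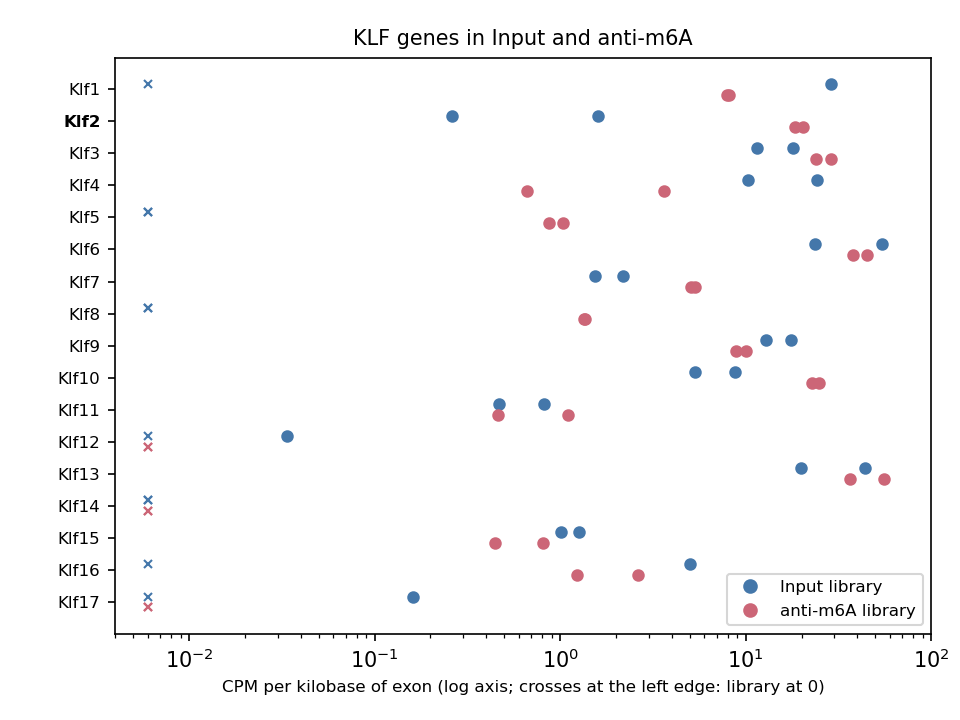
CPM per kilobase of exon on a log axis for the 17 KLF genes, with 1 point per library, Input in blue and anti-m6A in red; crosses at the left edge mark libraries at 0. The Klf2 points lie at 1.60 and 0.263 in Input and at 18.5 and 20.3 in anti-m6A.

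Genes that act upstream of Klf2 were measured in the same libraries. All 17 passed the count filter, 7 were higher and 3 lower against Input (28.0% and 20.5% over all genes), and their median log2 change was 1.31 beside 0.18 over all genes. Mapk7, which encodes ERK5, was at 0 in both Input libraries, with 39 and 36 counts in anti-m6A, at least 26.6-fold higher. Heg1, the receptor that anchors the cerebral cavernous malformation complex and so limits this pathway, went from 0 and 0 counts to 132 and 120, at least 89.2-fold higher. Prkaa1, a catalytic subunit of AMP kinase, was at least 37.3-fold higher. Mapk7, Heg1 and Prkaa1 were at 0 in Input and IgG alike, so they passed the count filter through anti-m6A alone and could only come out higher. In the other direction, Foxo1, a forkhead factor that induces Klf2 in T cells, had 210 and 472 counts in Input and 12 and 12 in anti-m6A, and fell by 3.67 on the log2 scale (edgeR adjusted p = 0.0109). Krit1, a member of the cerebral cavernous malformation complex, fell by 2.83 (edgeR adjusted p = 0.0142) and Hdac5, a repressor of MEF2, fell by 1.51 (adjusted p = 0.0458) on the log2 scale. Ccm2, of the same complex as Krit1, was higher instead, by 5.78 on the log2 scale (edgeR adjusted p = 0.0099). It had 17 and 5 counts in Input, 0 and 0 in IgG and 351 and 259 in anti-m6A. With Input counts this low Ccm2 leaned to a higher call. With anti-m6A replicate 1 or 2 left out, or the pairs summed, 5 members were higher and 0 lower. With all 6 libraries members of the same pathway thus moved in both directions, but the lower calls did not hold in these other fits.

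Of the 3 ubiquitin ligase genes that mark KLF2 protein for degradation, Wwp1 had 80 and 69 counts in Input, 610 and 226 in IgG and 144 and 124 in anti-m6A. Its anti-m6A level exceeded that in Input (log2 change 1.92 ± 0.36 SE; edgeR adjusted p = 0.0112) and was below that in IgG. Smurf1 had 1027 and 950 counts in Input and 69 and 40 in anti-m6A and fell by 3.13 on the log2 scale (edgeR adjusted p = 0.00718). Fbxw7 had a log2 change of -0.95 and was not called (edgeR adjusted p = 0.15). Wwp1 lost its call when anti-m6A replicate 1 or 2 was left out, and Smurf1 when replicate 2 was.

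Of 24 genes reported to respond to KLF2, mostly in endothelium and lymphocytes, 17 were tested, 5 were higher and 4 lower against Input, shares near the 28.0% and 20.5% of all genes, and their median log2 change was -0.32. Nos3 (endothelial nitric oxide synthase) and Il6 (interleukin 6) were at 0 in both Input libraries and at least 22-fold and 9.5-fold higher in anti-m6A. With no Input counts they could only come out higher in this comparison. Cited2, a transcriptional cofactor, had 714 and 790 counts in Input and 1176 and 1163 in anti-m6A and rose by 1.74 ± 0.26 on the log2 scale (SE; edgeR adjusted p = 0.00974). Kdr, a receptor for vascular endothelial growth factor, had 88 and 56 counts in Input and 0 and 0 in anti-m6A, at least 11.5-fold lower. Ace (angiotensin-converting enzyme) and Myc had log2 changes of -4.67 and -2.6 and were lower (edgeR adjusted p = 0.00723 and 0.0159). Pparg, which KLF2 lowers in fat cell precursors, had 951 and 1371 counts in Input and 395 and 285 in anti-m6A, a log2 change of -0.67 that was not called (edgeR adjusted p = 0.117). When either anti-m6A replicate was left out 3 members were higher and 0 lower, and DESeq2 called 4 higher and 9 lower. These values give shares of pulled-down RNA and say nothing of whether KLF2 protein acts on the genes.

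Klf2 belongs to the immediate early genes, which cells switch on within a short time of a stimulus such as dissociation. Of the 27 others listed, 23 were tested, 6 were higher and 6 lower in anti-m6A than in Input, with a median log2 change of -0.47. These shares are near the 28.0% and 20.5% of all genes. The 3 largest increases were in Maff and Atf3, at 0 in both Input libraries and at least 41.4-fold and 12-fold higher, and Nr4a2, which rose by 2.70 ± 0.69 in log2 units (SE; edgeR adjusted p = 0.0368). Maff and Atf3, also at 0 in IgG, passed the count filter through anti-m6A alone and could only come out higher. In the other direction stood log2 changes of -5.67 in Fosl2, -3.05 in Socs3 and -1.45 in Jun (edgeR adjusted p = 0.00716, 0.00723 and 0.0333). With DESeq2's size factors or with library totals 11 were lower. Leaving out anti-m6A replicate 1 or 2 left 2 higher and 1 lower. Klf4, Klf6 and Klf10 are in this list too. Several of these genes were abundant in Input, unlike Klf2: Fos had 7515 and 9593 counts there and Egr1 5430 and 5922.

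Since Klf2 is also a gene of endothelium, markers of that cell type stand beside its result. Of 18 endothelial markers 9 were tested, 3 were higher (Plvap, Ramp2 and Egfl7) and 3 lower (Kdr, Pecam1 and Tek) in anti-m6A than in Input, beside 28.0% and 20.5% of all genes, with a median log2 change of -1.81. Kdr and Tek are also among the genes that respond to KLF2. The summed level of the markers was 265 and 310 CPM in Input, 0 and 0.648 in IgG and 487 and 521 in anti-m6A. Plvap, a protein of endothelial diaphragms, went from 2 and 0 counts in Input to 227 and 186 in anti-m6A, whereas Pecam1, which encodes the CD31 used in the sort, went from 92 and 69 to 1 and 0. Cdh5 (VE-cadherin) was at 0 in both Input libraries and had 4 and 5 counts in anti-m6A, and Erg and Flt1 were at 0 in all 6 libraries. Other markers were well seen in Input. Cldn5 had 1452 and 1165 counts there, a mean of 142 CPM and the highest of the list, and 430 and 391 in anti-m6A. Icam2 had 97 and 1045 counts in Input and Emcn 0 and 511. None of these, Cldn5, Icam2 and Emcn, was called against Input. With anti-m6A replicate 1 or 2 left out, 2 were higher and 0 lower. Their part in the Klf2 result was not tested. In bulk RNA, fewer cells of a type and less RNA per cell cannot be told apart.

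Other markers were taken the same way, and their counts against Input are to be read beside the 28.0% higher and 20.5% lower of all genes. Of 13 blood markers 5 were tested, 2 were higher and 2 lower in anti-m6A than in Input. Ptprc, which encodes CD45, was at 0 in all 6 libraries, and the list summed to 44.6 and 151 CPM in Input, 2577 and 1722 in IgG and 66.6 and 82.7 in anti-m6A. Erythroid markers gave 2 higher and 1 lower of 7 tested (0 higher with DESeq2's size factors), and summed to 467 and 707 CPM in Input, 3621 and 3531 in IgG and 1052 and 1222 in anti-m6A. Of hepatocyte markers 0 were higher and 1 lower of 7 (0 higher also at an unadjusted p under 0.05 and by DESeq2). The hepatocyte markers had sums of 21814 and 20053 CPM in IgG, 121 and 1789 in Input and 1125 and 1193 in anti-m6A. The part of these markers in the Klf2 result was not tested. The counts were 2 and 1 of 5 for pericytes and muscle, 1 and 1 of 5 for osteoblasts, 0 and 0 of 2 for chondrocytes (likewise by edgeR at an unadjusted p under 0.05 and by DESeq2), and none of 3 neural and Schwann markers passed the filter. Of the 14 stromal markers, 1 was higher (Adipoq) and 7 lower against Input, beside the same 28.0% and 20.5% (3 lower without anti-m6A replicate 1). Cxcl12 was among the latter and changed by -1.13 ± 0.12 in log2 units (SE; edgeR adjusted p = 0.00716).

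The m6A machinery itself was measured for comparison with Klf2. Of 19 genes tested, 5 were higher, with the largest changes in Igf2bp3, Virma and Cbll1, and 3 lower (Fto, Rbm15b and Ythdf3) in anti-m6A than in Input. Input counts were only 0 and 4 in Igf2bp3, 0 and 2 in Virma and 8 and 6 in Cbll1. At counts this low these genes leaned to a higher call. The other higher members had Input counts of 1008 and 1602 (Ythdc1) and 26 and 28 (Ythdc2). Fto had 2236 and 1069 counts in IgG, against 743 and 482 in Input. Over all genes these shares were 28.0% and 20.5%. Mettl3 had 127 and 91 counts in Input and 55 and 23 in anti-m6A, and the reader gene Ythdf2 had 1387 and 1119 and 586 and 191. Neither was called (edgeR adjusted p = 0.561 and 0.375), and both were at 0 in the IgG libraries. After leaving out anti-m6A replicate 1 or 2, 2 of the 19 were higher and 0 lower.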

How the data were processed

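Poly(A) RNA from sorted stromal cells was sampled as Input (6% of the eluate) or bound to beads with anti-m6A antibody or IgG, eluted with N6-methyladenosine monophosphate and made into Smart-seq2 libraries, per the labels' protocols. These libraries carry no molecular identifiers and no strand. The authors deposited whole-number counts per Entrez gene, not normalized; per the submitters' processing notes the tools included featureCounts, Picard and edgeR 3.38.1, on mm10, and the aligner is not given in the sources used here. Of 27179 genes 25275 matched a RefSeq symbol (GRCm38.p6).

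The counts of all 6 libraries were fitted with edgeR 4.0.16 (R 4.3.3; quasi-likelihood, 1 shared spread over 3 groups, TMM scaling, no covariate). filterByExpr (minimum count 10, minimum total 15) kept 11281 genes, Benjamini-Hochberg adjustment ran over all of them, and the threshold was 0.05. A gene at 0 in both Input libraries could be kept only through its pull-down counts and could only come out higher against Input. The shares over all genes hold such genes too. A fold against a group at 0 was taken against a floor of 3 counts per library. The SE of an edgeR log2 change was worked back from the test, as the size of the change over the square root of its quasi-likelihood F. For the DESeq2 test the SE is the one that DESeq2 reports. DESeq2 1.42.0, other scalings, no filter, a replicate block, summed pull-down pairs and each library left out were alternatives. Exact binomial intervals (95%) came from scipy 1.17.1. Library totals ranged from 1278735 to 9493391 counts, so 3 counts correspond to a smaller share in the deeper libraries.

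Named genes were Klf2, its neighbours, the 5 genes of nearest pattern, the 3 nearest in both Input libraries, Klf4, Klf6, Mettl3, Ythdf2, Cxcl12 and, per list, at most 3 genes called against Input in each direction, by size. Klf7, Klf10, Fos, Egr1, Pparg, Fbxw7, Ccm2, Ythdc1, Ythdc2 and the endothelial and sort markers are named beside their lists' counts, chosen after their values were seen. The members and lists were chosen with earlier results of these data known, and support nothing by themselves.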

Additional observations from a re-analysis of the deposited data

How the results depend on the processing

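Klf2 against IgG was called under all 13 alternatives. Against Input its adjusted p (edgeR) was 0.0789 with the pull-down pairs summed and ran from 0.00108 to 0.0867 with 1 library left out; the cause was not tested, though these fits have fewer libraries. With the replicate block it was 0.0493. The labels do not say whether equal numbers mark 1 RNA sample. Deviations of same-numbered libraries correlated at 0.0415, 0.0859 and 0.0997 over all genes tested, which with 2 numbers does not settle it, and single genes can follow the number: Wtap had 4279 and 628 counts in Input, 1784 and 29 in IgG and 3020 and 587 in anti-m6A. For IgG against Input it was 0.041 with DESeq2's size factors, 0.0121 with DESeq2 and 0.00366 to 0.153 with 1 library left out.

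The percentage of genes of like Input count below Klf2 was 93.8 with 200 genes on each side, 89.4 within a factor of 1.5, 88.5 and 94.5 by Input replicate 1 or 2 alone, 88 with length, and 91.5 to 93 without an anti-m6A library. Seen from genes of like anti-m6A level, 86% had more Input (these last alternatives were chosen after seeing the data). Of the 5 genes of nearest pattern, 2 were kept by the Pearson correlation.

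Genes higher in anti-m6A than in Input numbered 1666 with the pairs summed and 1394 to 4956 with 1 library left out. Those lower numbered 1242 with the block, 474 with the pairs summed, 3635 by DESeq2 and 379 to 3595 with 1 library left out. Klf6 turned negative, uncalled, with DESeq2's size factors (adjusted p = 0.577, edgeR), by DESeq2 (0.577), with library totals (0.475), without Input replicate 1 (0.177) and without anti-m6A replicate 1 (0.984), and was positive and called without Input replicate 2 (0.0343). Input counts of 25 and 5 limit the size of the Klf2 change.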

Other observations

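Map2k5, which encodes the MEK5 kinase upstream of ERK5 and Klf2, was named after its values were seen. It had 23 and 2 counts in Input, 2121 and 962 in IgG and 140 and 106 in anti-m6A. It was thus, like Klf2, higher in anti-m6A than in Input (log2 change 4.27 ± 0.99 SE, n = 2 per group; edgeR adjusted p = 0.0199), but unlike Klf2 it was far more abundant in IgG than in anti-m6A. Eps15l1, the counted gene nearest to Klf2 on the chromosome, had 484 and 705 counts in Input, 1532 and 635 in IgG and 130 and 126 in anti-m6A.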
